A study of Mus musculus with 2 samples.

Results

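Macrophages of the adult mouse testis were examined in 2 single-cell RNA sequencing libraries of dissociated testis, 1 from Nsun7 knockout mice and 1 from wild-type (WT) mice. Nsun7 belongs to a gene family whose best known members put a methyl group on cytosines of RNA. The labels give neither the deleted stretch of Nsun7 nor the strain, the exact age or the number of animals behind a library. Each genotype is a single library, so the differences given here are without replicates and carry no test. All intervals are at 95% and cover the error of counting alone, of molecules for levels and ratios and of barcodes for shares. Barcodes, which stand for cells, were chosen by measured values: at least 200 genes, at most 20% mitochondrial counts, the 7 macrophage genes C1qa, C1qb, C1qc, Csf1r, Lyz2, Cd74 and Mrc1 at 0.3% or more of the counts with at least 5 counts, and 5 Leydig cell genes under 0.5%. This rule found 166 of 13869 kept barcodes in the knockout library and 221 of 15139 in the WT library, together 387 of 29008. The 7 genes were used by the rule, so their presence in the members is a description and not a finding.

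Testis macrophages live between the tubules and on the tubule wall, beside the Leydig cells that make testosterone. They depend on signals through Csf1r, the receptor for CSF1 and IL34, and are known for clearing dying cells, for supporting Leydig cells and for keeping the organ tolerant to germ cell antigens. In the mouse testis, macrophages with much MHC class II, the molecules that present peptides to helper T cells, have been described on the tubules, and macrophages with little MHC class II and much scavenger receptor in the interstitium.

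Nsun7, the targeted gene (chromosome 5, 66259897 to 66298026, plus strand of GRCm38), had 18 counts in 10 knockout members (33.0 CPM, counts per 1000000 counts) and 48 counts in 29 WT members (76.5 CPM), a ratio of 0.431 (0.236 to 0.755). The other kept barcodes were at 41.0 CPM in the knockout and 174 CPM in the WT library, so that members of both libraries lay below the rest. With every barcode thinned to 1000 unique molecular identifiers (UMIs), 0.602% of knockout and 6.33% of WT members held an Nsun7 UMI. Of Leydig barcodes, those with 1% or more of counts in 5 Leydig genes (337 knockout and 304 WT), 0% and 0.658% held one. With free RNA subtracted the log2 ratio of Nsun7 was 0.22 in place of -1.10. In the largest cluster of members, described below, there were 3 knockout counts (10.9 CPM) and 17 WT counts (72.9 CPM). The resident gene cluster, also described below, had 1 knockout count (16.7 CPM) and 3 WT counts (15.8 CPM). A cluster led by spermatid transcripts held 12 knockout and 7 WT counts. The cluster with the highest share of spermatocyte genes held 1 and 21. Many of the Nsun7 counts thus lay in barcodes with germ cell transcripts. As the deleted stretch is not given, counts that remain in the knockout library cannot be placed inside or outside it.

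Members made up 1.20% of kept barcodes in the knockout library (1.02% to 1.39%) and 1.46% in the WT library (1.28% to 1.66%). The difference was -0.26 percentage points (-0.53 to 0.00187), an interval that includes 0. The share counts barcodes after dissociation and the cell filter, and 2968 knockout and 1237 WT barcodes were above the limit on mitochondrial counts. Of those, 5 knockout and 4 WT barcodes met the other parts of the rule.

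The members were shallow compared with the other barcodes. Their median total was 2101.5 UMIs in the knockout library and 2026 UMIs in the WT library, against medians of 12020 and 8723 UMIs over all kept barcodes of the knockout and WT library. Summed over members, 545818 knockout and 627421 WT counts were available. The median member had 1148 genes and 4.003% mitochondrial counts in the knockout library, and 1150 genes and 3.368% in WT. Barcode names were shared by 2168 barcodes of the 2 libraries, and by 0 members. A doublet caller marked 17 knockout and 19 WT members, 10.2% and 8.60%, compared with 4.48% and 3.96% of all kept barcodes. These were kept. The member share, the resident gene cluster share and the ratios of lists and most named genes over members were also computed without them, with the clustering unchanged. Within the 2 largest clusters this was done for most lists and for the less rare genes.

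Near the threshold, the lowest marker share inside was 0.315% of counts in the knockout library and 0.304% in WT, and the highest share outside was 0.271% and 0.292%. The median share was 2.43% in knockout members and 2.17% in WT members, and the highest were 5.10% and 8.14%. A share of 1% or more was reached by 137 knockout and 190 WT members. The other 29 knockout and 31 WT members had median totals of 6225 and 3649 UMIs, above the 2032 and 1900.5 UMIs of those with the higher share.

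The label was compared with 28 macrophage genes that the rule did not use. This list was chosen with earlier results of these data known, so its values are a description and no independent check. All 28 were measured at an average of 50 CPM or more over the 2 libraries. Ctss, the lysosomal protease cathepsin S, was at 2391 CPM in knockout and 2015 CPM in WT members. Tyrobp, an adaptor of activating receptors, was at 843 CPM in knockout and 1020 CPM in WT members. The summed 28 genes stood at 11480 CPM in the knockout and 12111 CPM in the WT library. The log2 ratio of knockout over WT was -0.08 (-0.13 to -0.03), or 0.22 under trimmed mean scaling. In Leydig barcodes the 28 genes summed to 707.5 CPM in the knockout and 826 CPM in the WT library. In stromal barcodes, those with 0.3% or more of counts in stroma genes, the sums were 968.6 CPM and 837.5 CPM. After every barcode was thinned to 1000 UMIs, a Ctss UMI was seen in 92.8% of knockout and 80.5% of WT members. In Leydig barcodes, which should lack it, the share was 0.297% in the knockout and 1.97% in the WT library, at median depths of 14178 and 10541 UMIs. Without thinning, 99.4% of knockout and 94.1% of WT members held one. The C1q genes helped to choose the members, so their presence is a description and lends the label no support. A count of any C1q gene was present in 157 of 166 knockout and 204 of 221 WT members. Of those without one, 5 of 9 in the knockout and 15 of 17 in the WT library lay in a small cluster led by Ccl17, described below, whose markers go against the macrophage label.

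Of the genes that chose the members, the 3 chains of C1q, the protein that starts the classical complement pathway, were close between the libraries. C1qa was at 2548 CPM (1391 counts) in knockout and 2813 CPM (1765 counts) in WT members. C1qb was at 2043 CPM in knockout and 2144 CPM in WT members, and C1qc at 2030 CPM in knockout and 2192 CPM in WT members. Csf1r was at 658 CPM in knockout and 786 CPM in WT members. The other 3 genes were farther apart. Cd74, the invariant chain that guards newly made MHC class II, was at 7636 CPM in knockout and 5569 CPM in WT members. Lyz2, a lysozyme, was at 2085 CPM in knockout and 3522 CPM in WT members, and Mrc1, the mannose receptor, at 542 CPM in knockout and 835 CPM in WT members. When the members were chosen again by the other 6 genes, the log2 ratio of knockout over WT was 0.76 for Cd74, -0.79 for Lyz2 and -0.65 for Mrc1, and lay between -0.31 and -0.15 for the C1q genes and Csf1r. Within the MHC class II cluster described below Lyz2 was at 1969 CPM in knockout and 1991 CPM in WT barcodes, and within the resident gene cluster at 7047 CPM and 7482 CPM.

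The promoters of the genes on which the account turns are shown because the C1q genes chose the members and the MHC class II genes separate them. C1qa (chromosome 4, 136895917 to 136898803), C1qb (136880129 to 136886187) and C1qc (136889804 to 136893065) are neighbouring protein-coding genes on the minus strand of GRCm38, and H2-Aa (chromosome 17, 34282744 to 34287823, minus strand) and H2-Eb1 (34305867 to 34316674, plus strand) lie close together in the MHC. Each sequence runs 5′ to 3′ from 250 bases before to 50 bases after the RefSeq start on GRCm38.p6. It covers chr4:136886151-136886450 for C1qb, chr4:136892865-136893164 for C1qc, chr17:34287774-34288073 for H2-Aa and chr17:34305617-34305916 for H2-Eb1, written on the gene's strand. Capitals mark CTGATTGG, the Y box letters of MHC class II promoters, in the H2 genes, and AGGAAGT, which holds the core bound by ETS family factors such as PU.1, in the C1q genes, both searched on both strands.
H2-Aa: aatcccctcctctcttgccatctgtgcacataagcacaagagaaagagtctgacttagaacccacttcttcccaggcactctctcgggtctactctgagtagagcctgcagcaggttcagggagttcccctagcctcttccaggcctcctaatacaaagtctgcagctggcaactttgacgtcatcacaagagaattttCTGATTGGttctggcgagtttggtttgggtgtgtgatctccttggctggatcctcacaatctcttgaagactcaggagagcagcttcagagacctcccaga
H2-Eb1: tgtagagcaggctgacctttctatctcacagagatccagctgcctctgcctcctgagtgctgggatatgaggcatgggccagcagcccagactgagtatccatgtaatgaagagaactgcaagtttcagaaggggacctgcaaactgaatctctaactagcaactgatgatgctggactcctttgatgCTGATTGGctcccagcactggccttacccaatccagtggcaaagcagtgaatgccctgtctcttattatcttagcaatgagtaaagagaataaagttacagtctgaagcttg
C1qb: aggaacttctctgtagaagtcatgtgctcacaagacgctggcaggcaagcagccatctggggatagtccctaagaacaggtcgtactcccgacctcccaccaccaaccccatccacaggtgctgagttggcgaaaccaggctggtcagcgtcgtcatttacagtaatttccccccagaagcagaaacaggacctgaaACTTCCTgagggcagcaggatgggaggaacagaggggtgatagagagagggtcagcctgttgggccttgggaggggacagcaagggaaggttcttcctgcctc
C1qc: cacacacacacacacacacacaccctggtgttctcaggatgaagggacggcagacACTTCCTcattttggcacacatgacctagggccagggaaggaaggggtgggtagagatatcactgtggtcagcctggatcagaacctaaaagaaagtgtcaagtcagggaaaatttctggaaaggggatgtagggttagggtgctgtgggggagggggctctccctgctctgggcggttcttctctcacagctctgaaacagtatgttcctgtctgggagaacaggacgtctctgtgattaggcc
CTGATTGG stood at position -51 from the start in H2-Aa and at -62 in H2-Eb1, and 4.10% of 32851 RefSeq promoters of the same length hold it. AGGAAGT was found on the opposite strand, at -53 in C1qb and at -195 in C1qc, and 9.35% of those promoters hold it.

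The members fell into 5 clusters when grouped without mitochondrial, ribosomal protein, immediate early genes, Cxcl13, Retnla and Nsun7. The largest, called here the MHC class II cluster, was led by Fcgr4, Cd14, H2-Eb1 and Cxcl2. It held 120 of 166 knockout members (72.3%, 64.8% to 78.9%) and 116 of 221 WT members (52.5%, 45.7% to 59.2%). The resident gene cluster was led by F13a1, Cbr2, Folr2 and Apoe, with Fcrls, Ccl8 and Ccl24 also among its leading genes. Cxcl13, Dcn and Mgp led it as well, from a few WT barcodes only, as given further on. It held 19 knockout members (11.4%, 7.03% to 17.3%) and 61 WT members (27.6%, 21.8% to 34.0%). The difference was -16.2 percentage points (-23.6 to -8.23). The 2 libraries were thus apart in this share by more than counting error, and no replicate shows how much such a share varies between testes.

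**Figure D1:**
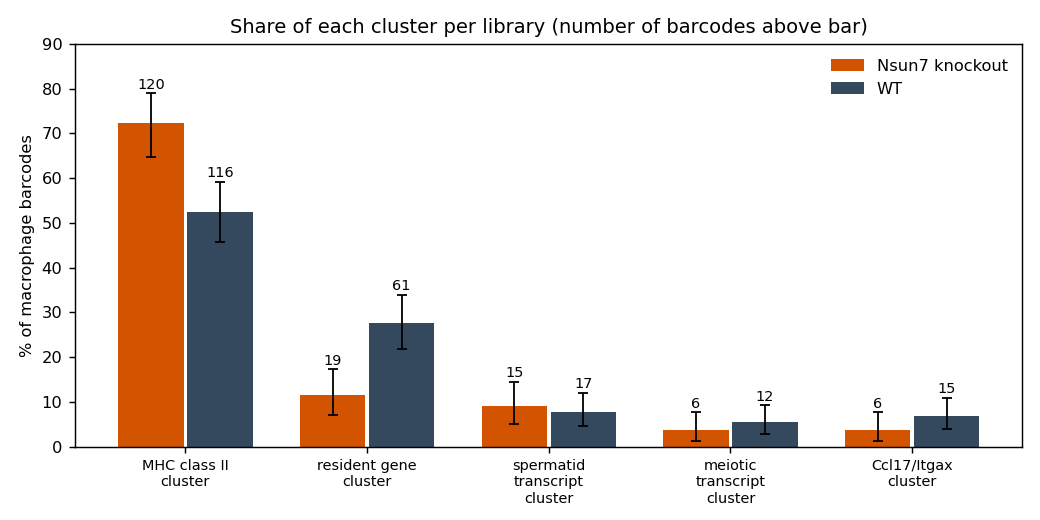
Share of the macrophage barcodes (vertical axis, %) in each of 5 clusters, knockout bar left of the WT bar, with exact Clopper-Pearson 95% intervals and the number of barcodes above each bar. The resident gene cluster holds 11.4% of knockout and 27.6% of WT members, and the MHC class II cluster 72.3% and 52.5%.

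The same split appeared when it was counted in other ways. In a clustering that left out the 249 genes of the rule and of the macrophage lists, the cluster with the most resident gene counts held 14 knockout members (8.43%) and 54 WT members (24.4%), and 14 and 53 of these were in the resident gene cluster described above. Counting members with more resident than MHC class II counts after thinning gave 23 knockout (13.9%) and 68 WT members (30.8%), of which 3 and 10 lay within 2 counts of equality. Over all settings the share ran from 8.43% to 14.1% in the knockout library and from 24.4% to 33.3% in WT.

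The other 3 clusters were small. The first was led by transcripts of condensing spermatids such as Spata3, Prm2 and Odf1, and held 15 knockout and 17 WT members, of which 9 and 8 were called doublets. The next, led by genes such as Eid3, Lyar and Spink2, had the highest share of spermatocyte genes of the 5, 0.607% of counts in the knockout and 1.02% in the WT library. It held 6 knockout and 12 WT members, of which 4 and 8 were called doublets. The last was led by Ccl17, a chemokine for T cells, with Bhlhe40, Itgax, S100a4, Ear2 and Plac8, and held 6 knockout members (3.61%, 1.34% to 7.70%) and 15 WT members (6.79%, 3.85% to 10.9%), with overlapping intervals and 0 called doublets. C1qa, C1qb and C1qc had counts in 1 of its 6 knockout barcodes and in 0 of its 15 WT barcodes, and Csf1r had 1 count in each library. Its barcodes met the rule mainly through Cd74, at 10804 CPM in the knockout and 10250 CPM in the WT library, and the cluster is called here by Ccl17 and given no cell type. Without it the resident gene cluster held 11.9% of 160 knockout and 29.6% of 206 WT members, and the log2 ratios over members were 0.70 for the MHC class II list and -1.04 for the resident list. The MHC class II share of the cluster led by Ccl17 was close to that of the largest cluster, at 3.49% of counts in the knockout and 2.81% in the WT library.

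Along the 2 lists the barcodes formed nearly separate groups. The clustering could use the genes of both lists, so this separation describes the clusters and is not a finding. In the MHC class II cluster the list of MHC class II genes took a median of 3.83% of a barcode's counts in the knockout library (quartiles 2.53% and 4.57%) and 2.96% in WT (quartiles 2.07% and 3.74%). In the resident gene cluster its median was 0.0894% in the knockout and 0.126% in the WT library. The list of resident and scavenger genes had medians of 2.29% in knockout and 2.41% in WT barcodes of the resident gene cluster, and of 0.24% and 0.262% in those of the MHC class II cluster. A few barcodes of the resident gene cluster carried both sets of genes, with MHC class II shares up to 5.65% in the knockout and 4.8% in the WT library.

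**Figure D2:**
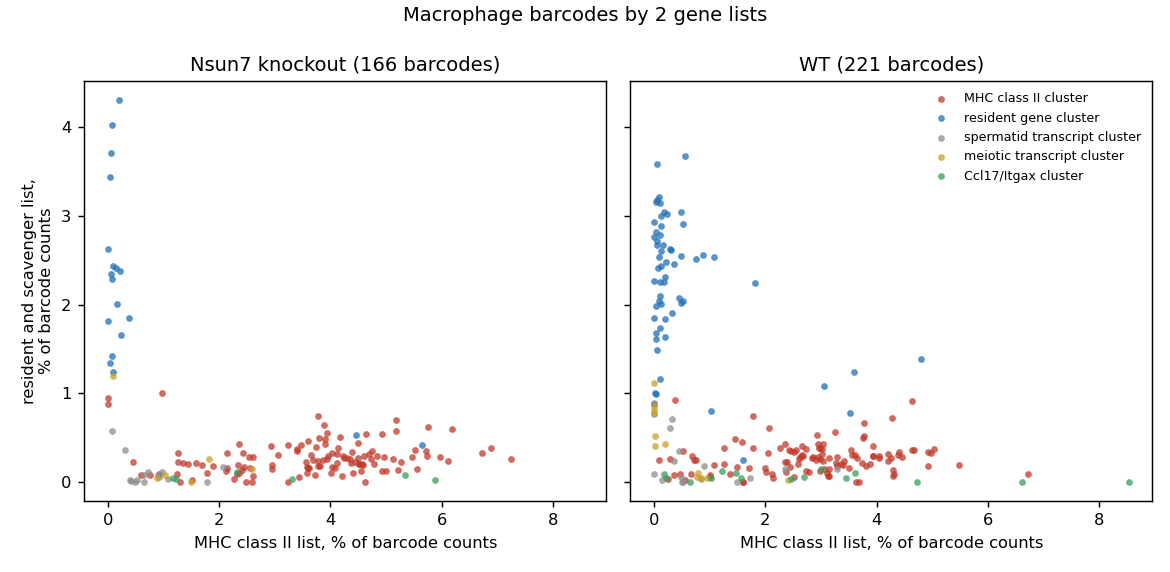
Each point is 1 macrophage barcode, with the MHC class II list (horizontal axis) and the resident and scavenger list (vertical axis) as % of its counts, knockout library left and WT library right, coloured by cluster. The resident gene cluster spreads along the vertical axis, with 19 knockout and 61 WT barcodes, and the MHC class II cluster along the horizontal axis.

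Over all members, the MHC class II genes were higher in the knockout library. Cd74, the invariant chain of MHC class II, is a rule gene, so members were not chosen independently of this list. Chosen without Cd74, the members were 144 knockout and 197 WT barcodes, and the list was not recomputed on them. The 13 genes of the list summed to 22097 CPM (21704 to 22495) in the knockout and 14080 CPM (13788 to 14377) in the WT library. Their log2 ratio was 0.65 (0.61 to 0.69). Of 7 genes measured at an average of 50 CPM, 2 were higher in knockout members by 1.5 times or more, H2-Aa and H2-Eb1, and 0 were lower by as much. Among all 3527 genes at that level, 14.1% were higher and 25.8% lower by that factor. The median log2 ratio was 0.42 over the 7 genes and -0.19 over all 3527. H2-Aa, an alpha chain, was at 8996 CPM in knockout and 5449 CPM in WT members, a ratio of 1.65 (1.58 to 1.73). H2-Eb1, a beta chain, was at 7044 CPM in knockout and 4139 CPM in WT members, a ratio of 1.70 (1.62 to 1.79). H2-Ab1 was at 4672 CPM in knockout and 3331 CPM in WT members, and the peptide loading factor H2-DMa at 451 CPM in knockout and 349 CPM in WT members. Ciita, the transactivator of this gene set, was rare, with 37 knockout counts (67.8 CPM) and 16 WT counts (25.5 CPM), a ratio of 2.66 (1.44 to 5.12). In Leydig barcodes the list was at 81.0 CPM in the knockout and 145 CPM in the WT library, a log2 ratio of -0.84. The Leydig limit left out 1 knockout and 4 WT barcodes that met the macrophage marker limits. Leydig barcodes can include these, and their part in this ratio was not tested.

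Part of this difference was also seen inside the MHC class II cluster, where the list was at 34657 CPM in knockout and 26550 CPM in WT barcodes, a log2 ratio of 0.38 (0.34 to 0.43). H2-Aa was at 14235 CPM there in the knockout and 10374 CPM in the WT library, and H2-Eb1 at 11148 CPM in the knockout and 8358 CPM in the WT library. Of 8 measured genes, 1 was higher by 1.5 times or more, Ciita at 90.7 CPM in the knockout and 38.6 CPM in the WT library, and 0 were lower by as much. In this cluster 11.4% of all 3478 genes measured there were higher by that factor and 16.2% lower. In the resident gene cluster the list's log2 ratio was 0.64 (0.46 to 0.82) by summed counts, but 0.07 without the barcode with the most counts in each library, while the median share per barcode was lower in the knockout library. The value in the resident gene cluster thus rests on those barcodes.

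The tissue resident and scavenger genes were lower over all members of the knockout library. The 21 genes summed to 4082 CPM (3914 to 4255) in the knockout and 8278 CPM (8055 to 8507) in the WT library, a log2 ratio of -1.02 (-1.09 to -0.95). Of 13 measured, 12 were lower by 1.5 times or more and 0 higher by as much, beside 25.8% and 14.1% of all genes. The median log2 ratio was -1.11 over the 13 genes. Pf4, a chemokine, was at 592 CPM in knockout and 1375 CPM in WT members, a ratio of 0.430 (0.377 to 0.489). Cbr2, a carbonyl reductase, was at 313 CPM in knockout and 786 CPM in WT members, and F13a1, the clotting factor XIII subunit A, at 350 CPM in knockout and 760 CPM in WT members. Folr2, a folate receptor, had 39 knockout counts (71.5 CPM) and 152 WT counts (242 CPM), a ratio of 0.295 (0.202 to 0.422). Selenop, a selenium transport protein that Leydig cells also express, was at 1948 CPM in knockout and 3296 CPM in WT members. The exception was Cd163, the receptor for haemoglobin bound to haptoglobin, at 98.9 CPM in knockout and 110 CPM in WT members.

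Inside the clusters the resident list was nearly level. The clustering could use the genes of this list, and the resident gene cluster is the one with its highest share. Likeness inside a cluster is thus in part set by the grouping and is given as a description. The same limit holds for other genes and lists compared within the clusters. It stood at 20623 CPM in knockout and 21411 CPM in WT barcodes of the resident gene cluster, a log2 ratio of -0.05 (-0.15 to 0.04), and at 2568 CPM and 2604 CPM in those of the MHC class II cluster, a log2 ratio of -0.02 (-0.18 to 0.14). Pf4 was at 3549 CPM in knockout and 3440 CPM in WT barcodes of the resident gene cluster, Cbr2 at 2494 CPM and 2306 CPM, and Folr2 at 619 CPM and 733 CPM. F13a1 was at 2846 CPM in the knockout and 2279 CPM in the WT library there, a ratio of 1.25 (1.04 to 1.49). Cd163 was at 804 CPM in knockout and 317 CPM in WT barcodes of this cluster, a ratio of 2.54 (1.70 to 3.77), with UMIs in 7 of 19 and 26 of 61 barcodes and at most 18 and 10 counts in 1 of them. The share of barcodes with a Cd163 UMI after thinning was 26.3% in the knockout and 27.9% in the WT library. Genes of interstitial stroma summed to 50.2 CPM in knockout and 1899 CPM in WT barcodes of this cluster, where 130 WT counts of Dcn lay in 7 barcodes and 92 of them in 1. Their part in the values of this cluster was not tested.

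A pair of C-type lectin genes was lower within the resident gene cluster too. Cd209f had 6 knockout counts (11.0 CPM) and 120 WT counts (191 CPM) over all members. In the resident gene cluster it had 5 counts in 3 knockout barcodes (83.7 CPM) and 84 counts in 21 WT barcodes (443 CPM), a ratio of 0.189 (0.0598 to 0.458). Clec4n, which encodes the fungal sensor dectin-2, had 27 counts in 10 knockout barcodes (452 CPM) and 161 counts in 47 WT barcodes (850 CPM) of that cluster, a ratio of 0.532 (0.340 to 0.803). The WT counts were spread, with at most 16 of Cd209f and 11 of Clec4n in 1 barcode. These ratios rest on 19 knockout barcodes, and the pair is a pick from the named genes. Of all 3931 genes measured in this cluster, 11.3% were higher and 10.7% lower by 2 times or more. By 1.5 times or more, 25.4% were higher and 19.2% lower.

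**Figure D3:**
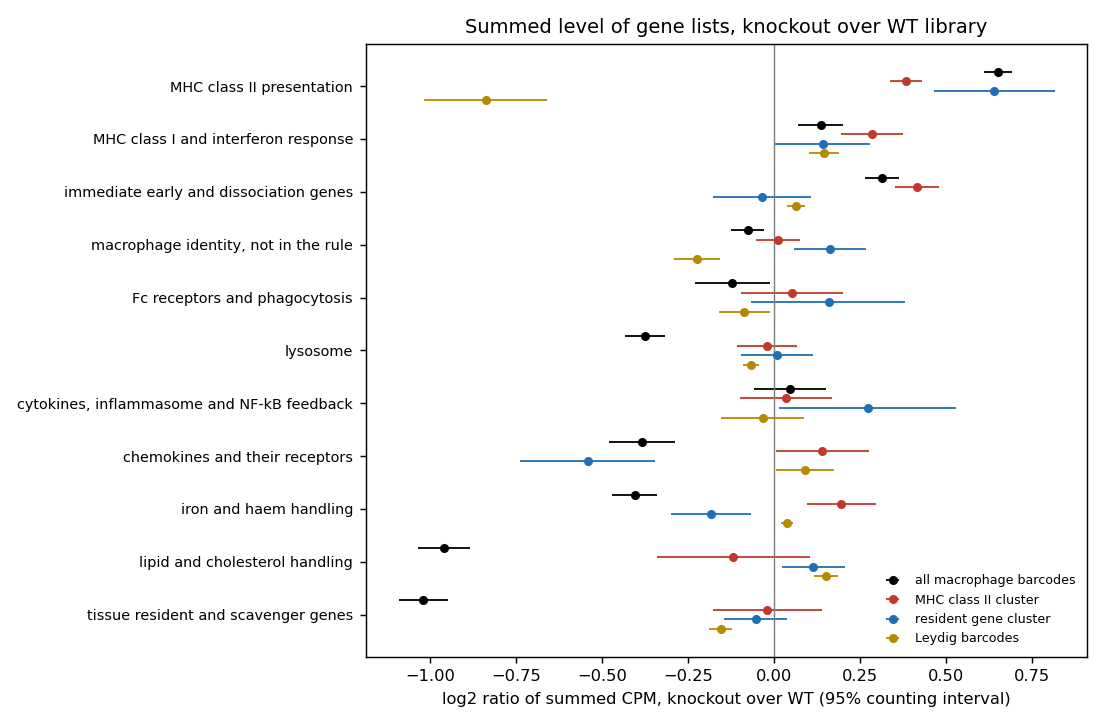
Log2 ratio of the summed CPM of 11 gene lists, knockout over WT (horizontal axis), over all macrophage barcodes, the MHC class II cluster, the resident gene cluster and Leydig barcodes, with 95% counting intervals. The resident list is at -1.02 over all members and at -0.05 and -0.02 within the clusters, and the MHC class II list is at 0.65 over all members and at 0.38 within the MHC class II cluster.

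Lipid genes were lower as well over all members of the knockout library. The 19 genes of lipid and cholesterol handling summed to 3796 CPM in the knockout and 7383 CPM in the WT library, a log2 ratio of -0.96 (-1.04 to -0.88), and 5 of 9 measured were lower by 1.5 times or more and 0 higher by as much, beside 25.8% and 14.1% of all genes. The list's log2 ratio was -0.12 (-0.34 to 0.10) within the MHC class II cluster and 0.11 (0.02 to 0.21) within the resident gene cluster. Apoe, the apolipoprotein that carries cholesterol between cells, was at 2922 CPM in knockout and 5912 CPM in WT members. It thus made up most of the list's sum over members in both libraries. The median log2 ratio over the 9 measured genes was -0.60, beside -0.19 over all 3527 genes. Within the resident gene cluster Apoe was at 19050 CPM in knockout and 17549 CPM in WT barcodes, and 19 of 19 knockout and 61 of 61 WT barcodes of that cluster held an Apoe UMI after thinning. Leydig barcodes also express Apoe, at 790 CPM in the knockout and 721 CPM in the WT library. Genes of iron and haem handling summed to 5830 CPM in the knockout and 7720 CPM in the WT library, a log2 ratio of -0.41 (-0.47 to -0.34). The ratio was -0.10 under trimmed mean scaling. Within the resident gene cluster it was -0.18 (-0.30 to -0.07). Within the MHC class II cluster the sum had a ratio of 0.20 (0.10 to 0.29) while the median over 7 measured genes was -0.42, with 0 higher and 3 lower by 1.5 times or more, beside 11.4% and 16.2% of all genes there. The ferritin genes Fth1 and Ftl1, which store iron, made up most of that sum. Fth1 was at 4994 CPM in knockout and 4303 CPM in WT barcodes of that cluster, and Ftl1 at 1705 CPM and 1420 CPM. Hmox1, which degrades haem, was at 56.8 CPM in knockout and 163 CPM in WT members, and at 167 CPM and 311 CPM in the resident gene cluster, a ratio of 0.538 (0.245 to 1.06). Lysosome genes had a log2 ratio of -0.38 over all members (-0.07 under trimmed mean scaling) and of -0.02 and 0.01 within the MHC class II and resident gene clusters.

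Lpl, which encodes lipoprotein lipase (chromosome 8, 68880491 to 68907448, plus strand), had the lowest ratio among genes at least 4 times higher in members than in the other kept barcodes, leaving out genes with 0 counts in a library. It had 4 counts in 3 of 166 knockout members (7.33 CPM) and 107 counts in 56 of 221 WT members (171 CPM), with at most 2 knockout and 7 WT counts in 1 barcode. The ratio was 0.0430 (0.0115 to 0.113), so that WT was 23.3 times higher. In the MHC class II cluster there were 2 counts in 1 of 120 knockout barcodes (7.25 CPM) and 47 counts in 26 of 116 WT barcodes (202 CPM), a ratio of 0.0360 (0.00423 to 0.137). In the resident gene cluster there were 2 counts in 2 of 19 knockout barcodes (33.5 CPM) and 38 counts in 19 of 61 WT barcodes (200.5 CPM), a ratio of 0.167 (0.0195 to 0.646). After thinning, a UMI was seen in 1.20% of knockout and 14.9% of WT members, and in 0% of the Leydig barcodes of either library. Stromal barcodes went the other way, at 220 CPM in the knockout and 87.9 CPM in the WT library.

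Several genes induced by interferon were higher in the knockout library. Of 14 measured genes of MHC class I presentation and the interferon response, 5 were higher by 1.5 times or more and 0 lower by as much over all members, beside 14.1% and 25.8% of all genes. The 5 are named here after their values were seen, and had log2 ratios of 0.75 for Tap1 and 1.29 for Tap2, which carry peptides to MHC class I, 0.62 for the immunoproteasome subunit gene Psmb9, 0.74 for the transcription factor gene Irf1 and 0.59 for Oasl2, which is induced by interferon. In the MHC class II cluster 6 of 16 were higher and 0 lower, beside 11.4% and 16.2%, with a median log2 ratio of 0.52 against -0.06 over all genes there. Of the 14 measured in the resident gene cluster, 3 were higher and 4 lower, beside 25.4% and 19.2% of all 3931 genes measured there, with a median log2 ratio of -0.02. Bst2, which tethers viruses to the cell surface, was at 127 CPM in knockout and 81.5 CPM in WT barcodes of the MHC class II cluster, and at 218 CPM and 354 CPM in the resident gene cluster, a ratio there of 0.616 (0.312 to 1.13). Rsad2, which encodes the antiviral viperin, had 1 knockout and 17 WT counts in the resident gene cluster, a ratio of 0.187 (0.00447 to 1.19). The summed list, dominated by B2m, H2-K1 and H2-D1, had a log2 ratio of 0.13 (0.07 to 0.20) over all members. It was 0.28 (0.19 to 0.37) in the MHC class II cluster and 0.14 (0.00288 to 0.28) in the resident gene cluster. Leydig barcodes stood at 0.14 (0.10 to 0.19) and stromal barcodes at 0.11 (0.01 to 0.21), close to the value over all members. B2m, the light chain of MHC class I, was at 2503 CPM in knockout and 2096 CPM in WT members, and the heavy chain H2-K1 at 1394 CPM in knockout and 1573 CPM in WT members.

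Ifi47, Trim30a and Irgm1, which are not on that list, were among the 12 highest ratios. They are named here because of those ratios, so they lend the list no support. Ifi47, an interferon-induced GTPase that acts against pathogens inside cells, had 59 counts in 36 knockout members (108 CPM) and 15 counts in 10 WT members (23.9 CPM), a ratio of 4.52 (2.53 to 8.58). The counts were spread, with at most 7 in 1 knockout barcode. In the MHC class II cluster Ifi47 was at 123 CPM in knockout and 21.5 CPM in WT barcodes, a ratio of 5.75 (2.24 to 18.8). In the resident gene cluster it was at 251 CPM in knockout and 52.8 CPM in WT barcodes, a ratio of 4.76 (2.00 to 11.9). Leydig barcodes held 3.28 CPM in the knockout and 3.11 CPM in the WT library. Tap2 had 40 knockout counts (73.3 CPM) and 17 WT counts (27.1 CPM), a ratio of 2.71 (1.499 to 5.09). The interferon-induced Trim30a had 70 knockout counts (128 CPM) and 36 WT counts (57.4 CPM), and the GTPase gene Irgm1 had 41 knockout counts (75.1 CPM) and 25 WT counts (39.9 CPM). Cxcl9, an interferon-induced chemokine, had 35 of its 45 knockout counts in 1 barcode, against 8 WT counts in all, and its log2 ratio was -0.15 among members with a marker share of 1% or more.

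**Figure D4:**
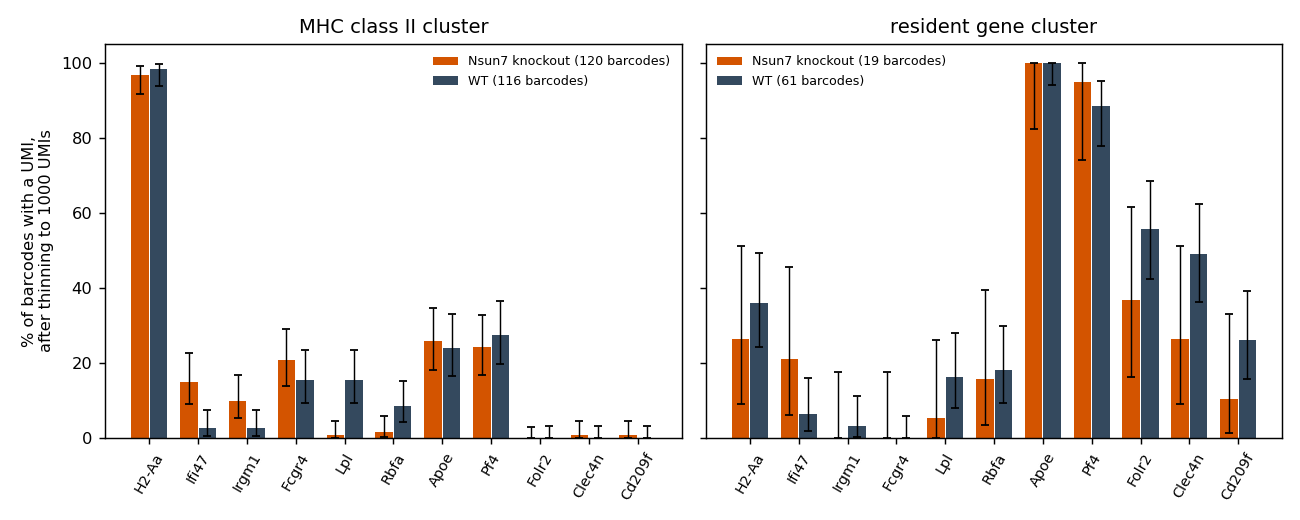
Share of barcodes (vertical axis, %) with at least 1 UMI of a gene after thinning to 1000 UMIs, in the MHC class II cluster (left panel) and the resident gene cluster (right panel), knockout bar left of WT bar, with exact 95% intervals. Ifi47 is seen in 18 of 120 knockout and 3 of 116 WT barcodes of the MHC class II cluster, and Lpl in 1 and 18.

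The immediate early and dissociation genes, which tissue digestion is known to induce, summed to 12880 CPM in the knockout and 10366 CPM in the WT library, a log2 ratio of 0.31 (0.26 to 0.36). Within the MHC class II cluster the log2 ratio was 0.42 (0.35 to 0.48), and within the resident gene cluster -0.03 (-0.18 to 0.11). Hspa1a, a heat shock protein gene, was at 2122 CPM in knockout and 1151 CPM in WT members, and Fos at 1858 CPM in knockout and 1399 CPM in WT members. In Leydig barcodes the list's log2 ratio was 0.06. These genes were higher together with the MHC class II and interferon genes in the MHC class II cluster, and their part in those differences was not tested.

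Receptors and chemokines varied by gene. Fcgr4, a receptor for IgG that leads the MHC class II cluster, was at 178 CPM in knockout and 87.7 CPM in WT members, and at 308 CPM and 210 CPM within that cluster. Fc receptor and phagocytosis genes as a list had a log2 ratio of -0.12 (-0.23 to -0.01) over all members, 0.18 under trimmed mean scaling, and 0.05 (-0.10 to 0.20) in the MHC class II cluster. Cxcl2, which attracts neutrophils, was at 357 CPM in knockout and 179 CPM in WT members, with 42 of 195 knockout counts in 1 barcode. Ccl3 was at 487 CPM in knockout and 559 CPM in WT members, and Ccl4 at 379 CPM and 338 CPM. Ccl8, a chemokine of the resident gene cluster, was at 275 CPM in knockout and 607 CPM in WT members, and at 1507 CPM and 1905 CPM within that cluster. Cytokine and NF-kB feedback genes had a log2 ratio of 0.04 (-0.06 to 0.15), with 0 of 14 measured genes 1.5 times apart in either direction, beside 14.1% higher and 25.8% lower of all genes. Within the resident gene cluster 6 of 16 were higher and 3 lower, beside 25.4% and 19.2% of all genes there, with a median log2 ratio of 0.41. Ccl4 stood out in the resident gene cluster, with 3 counts in 1 knockout barcode and 47 counts in 14 WT barcodes, a ratio of 0.203 (0.0403 to 0.629).

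Looking beyond the lists, 1033 of the measured genes were 4 times or more higher in members than in the other kept barcodes. In knockout members 5 of these were higher by 2 times or more and 42 lower, which is 0.484% and 4.07%. Among all 3527 genes the shares were 6.01% higher and 9.87% lower. These counts depend on the scaling. The trimmed mean factor of knockout over WT was -0.30 on the log2 scale, and scaling by it gave 21 higher and 17 lower of the 1033 genes, and 408 higher and 176 lower of all 3527. Among the 12 lowest ratios were Rbfa, which encodes a mitochondrial ribosome binding factor, with 13 knockout counts (23.8 CPM) and 67 WT counts (107 CPM), and the linker histone gene H1f0 with 14 knockout counts (25.7 CPM) and 54 WT counts (86.1 CPM). Rbfa was at 10.9 CPM in knockout and 107 CPM in WT barcodes of the MHC class II cluster. In Leydig barcodes it was at 73.9 CPM in the knockout and 77.0 CPM in the WT library. After thinning, an Rbfa UMI was seen in 3.01% of knockout and 10.9% of WT members, beside 8.01% and 8.88% of Leydig barcodes, and an H1f0 UMI in 3.61% and 9.05% of members, beside 11.0% and 11.2% of Leydig barcodes.

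Several of the widest gaps came from single barcodes. Cxcl13, a chemokine that attracts B cells, had 0 knockout counts and 315 WT counts, but 313 of the 315 lay in 1 barcode. Retnla, a marker of alternative activation, had 0 knockout counts and 153 WT counts in 4 barcodes, with 76 in 1 of them. Of the WT counts, 82 lay in 2 barcodes of the cluster led by spermatid transcripts and 71 in 2 barcodes of the cluster led by Ccl17. The MHC class II and resident gene clusters had 0 Retnla counts in both libraries. WT was at least 91.3-fold higher for Cxcl13 and 44.4-fold higher for Retnla, taking 3 counts over the knockout members as the limit. For Irf8, a transcription factor of macrophages and dendritic cells, 42 of 126 knockout counts lay in 1 barcode. Its level was 231 CPM in knockout and 119.5 CPM in WT members, and 161 CPM and 114 CPM without the barcode with the most counts in each library. After thinning, an Irf8 UMI was seen in 16.9% of knockout and 13.1% of WT members, below the 18.7% and 16.4% of Leydig barcodes, where Irf8 was at 211 CPM and 191 CPM. Rgs1 had 31 of 50 knockout counts in 1 barcode, and its log2 ratio was -0.13 among members with a marker share of 1% or more and -0.10 without the cluster led by Ccl17. The apoptosis gene Pmaip1 had 21 of 58 in 1 barcode. A knockout barcode of the resident gene cluster held 88 of the 311 knockout counts of 12 proliferation genes. A second one, in the MHC class II cluster, held 65. This second barcode was a called doublet with 25203 counts, a marker share of 0.464% and 6.47% spermatid gene counts. In WT the highest held 32 of 307.

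**Figure D5:**
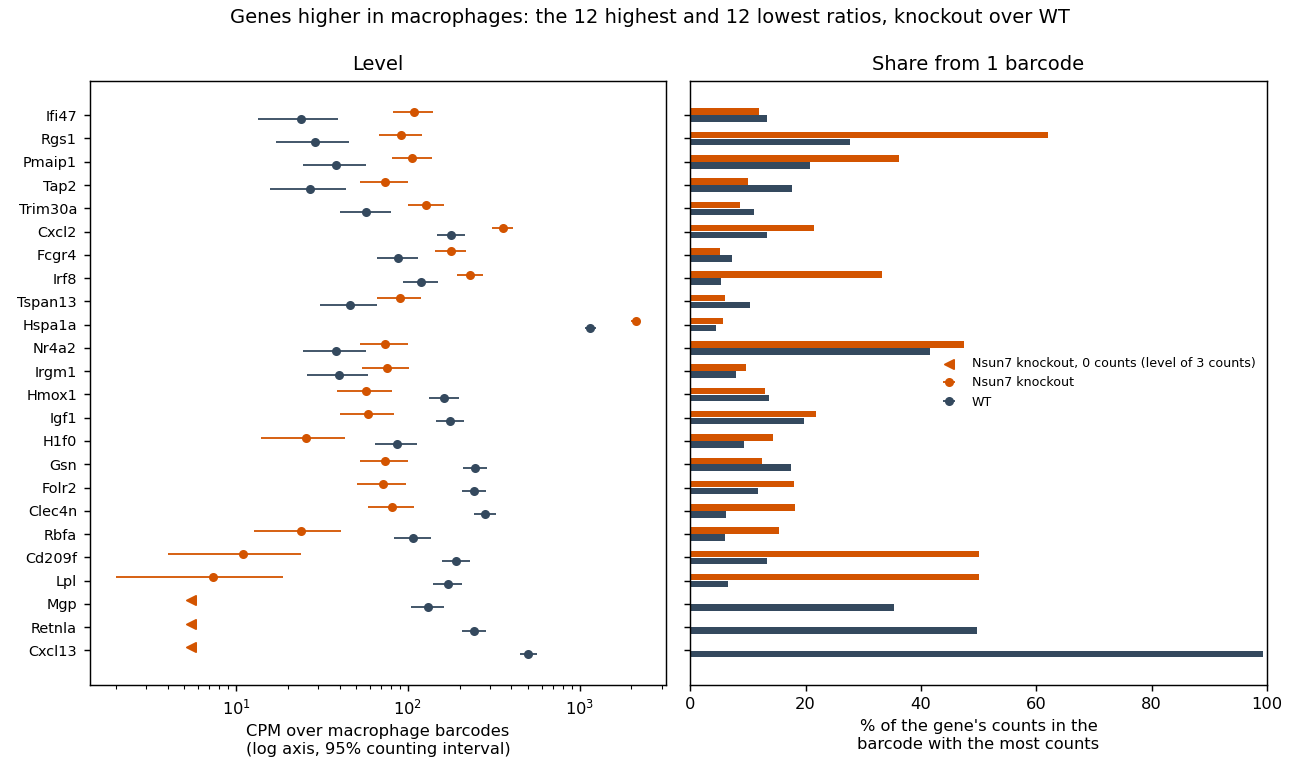
Left panel, CPM over macrophage barcodes (log axis) of the 12 highest and 12 lowest knockout over WT ratios among genes at least 4 times higher in members, with 95% counting intervals and triangles at the level of 3 counts for genes with 0 counts. Right panel, share of each gene's counts in the barcode with the most counts (horizontal axis, %), which is 11.9% for Ifi47 in the knockout library and 99.4% for Cxcl13 in WT.

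Transcripts of other cell types were present in the members and differed between the libraries. The 13 spermatid genes took 8.04% of the summed member counts in the knockout library and 3.22% in WT. Per barcode the medians were 2.83% and 1.76%. Over the whole library these genes took 18.6% of counts in the knockout and 8.81% in WT, so that members stood at 43.3% of the library level in the knockout and 36.6% in WT. Inside the MHC class II cluster they took 3.41% in the knockout and 2.04% in the WT library. Sertoli cell genes summed to 749 CPM in the knockout and 400 CPM in the WT library, a log2 ratio of 0.91, which was -0.20 among members with a marker share of 1% or more. Genes of peritubular myoid cells summed to 385 CPM in the knockout and 171 CPM in the WT library. Genes of interstitial stroma summed to 78.8 CPM in the knockout and 681 CPM in the WT library, where 92 of 135 counts of Dcn, a matrix proteoglycan, lay in 1 barcode. Conversely, the 7 rule markers summed to 29.5 CPM in Leydig barcodes of the knockout and 163 CPM in those of the WT library. The part of free RNA, doublets and other cells in the differences above was not tested. With called doublets left out, the resident gene cluster held 12.8% of knockout and 29.2% of WT members.

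Summed over all members, markers of other blood cells were scarce. Neutrophil genes summed to 12.8 CPM in the knockout and 11.2 CPM in the WT library, and 7 of 9 listed genes were at 0 in both. Dendritic cell genes summed to 178 CPM in the knockout and 217 CPM in the WT library, and B and plasma cell genes to 289.5 CPM and 392.1 CPM. T and NK cell genes summed to 53.1 CPM in the knockout and 62.2 CPM in the WT library. Mast cell genes were at 7.33 CPM and 15.9 CPM, and red blood cell genes at 11.0 CPM and 4.78 CPM, with Hba-a1 and Hba-a2 at 0 in both. Monocyte genes summed to 447 CPM in the knockout and 561 CPM in the WT library, among them Ccr2 at 97.1 CPM in knockout and 108 CPM in WT members. They were denser in the cluster led by Ccl17, at 0.168% of counts in the knockout and 0.261% in the WT library. In the MHC class II cluster they took 0.0421% and 0.0566%. Plac8, expressed in monocytes and in testis stroma, had 0 knockout and 42 WT counts, 26 of them in 3 barcodes of the cluster led by Ccl17.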

How the data were processed

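Poly(A) RNA of dissociated testis was measured with the DNBelab C series droplet system, per the labels' protocols. Each deposited matrix lists integer counts by gene and barcode. Its header names PISA 0.12, and the submitters' processing notes name GRCm38. For the aligner, the annotation, any barcode filter and any doublet removal before deposit, the tools and settings are not stated in the sources at hand. Counts were taken as UMIs, and the libraries held 210531446 (knockout) and 220247156 (WT) counts.

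Genes were matched between the libraries by symbol. Of 30052 symbols, 97.5% are found in GENCODE M21 (GRCm38), which gave the gene coordinates. Promoters are RefSeq sequences (GRCm38.p6); 4 are printed. Counts were summed over the members of each library and divided by their total (CPM), with exact Poisson intervals for levels, conditional binomial intervals for ratios, Clopper-Pearson intervals for shares and a Newcombe interval for a difference of shares. Log2 ratios of single genes add 5 CPM to each side and printed ratios do not; summed lists add nothing. A gene was counted at a mean of 50 CPM or more, when at least 2 times (lists, 1.5 times) apart. The members and lists were chosen with earlier results of these data known. The genes named were the rule markers, Nsun7, the 15 genes at 100 CPM or more with the highest ratio of members to the rest, the 12 highest and 12 lowest knockout over WT ratios among genes at least 4 times higher in members (without predicted, mitochondrial and ribosomal protein genes), and per list the 4 most abundant and the 2 extreme genes. The leading genes of clusters are named as a description.

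Members were clustered on 1500 variable genes, 20 principal components and 15 neighbours by Leiden clustering with a resolution of 0.5, without batch correction (scanpy 1.11.5 and igraph 0.11.9). Doublets were called per library with Scrublet and kept. Leydig barcodes (337 knockout, 304 WT) had 1% or more of counts in 5 Leydig genes, and stromal barcodes (155 knockout, 330 WT) 0.3% or more in stroma genes. Trimmed mean scaling used edgeR 4.0.16, and other steps Python 3.11.15 with numpy 2.4.6, scipy 1.17.1 and pandas 2.3.3. The ratio step was tested on simulated data. Alternatives changed the cell filter, the marker share and count, the Leydig limit, doublets, depth, scaling, the prior, the minimum level and free RNA, and, added after seeing the data, a marker share of 1%, members without the 2 germ cell clusters or without the cluster led by Ccl17, single barcodes and the clustering.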

Additional observations from a re-analysis of the deposited data

Results flagged for a closer look

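The log2 ratio of knockout over WT for Lpl was -3.83 in macrophages and 1.28 in stromal barcodes, so the libraries were apart in opposite directions in these cell types. In stroma there were 148 counts in 51 of 155 knockout barcodes (220 CPM) and 100 counts in 56 of 330 WT barcodes (87.9 CPM), with at most 13 and 12 counts in 1 barcode. Each cell type has 1 library per genotype, so the difference between the macrophage and the stromal ratio was not tested. Over all settings the macrophage ratio lay between -4.36 and -3.38.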

How the results depend on the processing

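With 1 library per genotype, leaving out a library or weighing replicates was not possible, and no paired analysis was possible because the 2 libraries share no second replicate. The member share and the resident gene cluster share kept their direction under each setting run. Of the enriched genes, the number higher by 2 times or more in knockout members (5) was 13 at a marker share of 0.5%, 8 with no Leydig limit, 9 without called doublets, 11 at 2000 or more counts, 21 at a marker share of 1%, 17 without the germ cell clusters, 21 under trimmed mean scaling, 12 with barcodes weighted alike, 16 and 0 at minimums of 20 and 100 CPM, and 29 with free RNA subtracted. The number lower (42) was 17 under trimmed mean scaling and 104 and 21 at minimums of 20 and 100 CPM.

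The resident gene log2 ratio (-1.02) was -0.93 at 500 genes and 10% mitochondrial counts, -0.78 at marker shares of 0.5% and of 1%, -0.85 without called doublets, -1.14 at 2000 counts, -0.92 without the germ cell clusters, -0.72 under trimmed mean scaling, -0.77 with barcodes weighted alike and -0.90 with free RNA subtracted. That of MHC class II (0.65) was 0.74 and 0.79 at marker shares of 0.5% and 1%, 0.79 with no Leydig limit, 0.75 at 2000 counts, 0.78 without the germ cell clusters, 0.70 without the cluster led by Ccl17, 0.95 under trimmed mean scaling and 0.78 with free RNA subtracted.

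Some log2 ratios turned round, and the cause was not tested. At a marker share of 1% these were Sertoli genes (sum -0.20, median -0.28), Cxcl9 (-0.15), Defb19 (-0.38) and Rgs1 (-0.13), which was -0.0982 without the cluster led by Ccl17. With free RNA subtracted they were spermatocyte genes (sum 0.23, median 0.65), the m5C median (0.0413) and Nsun7 (0.22). The m5C median was 0.0472 without doublets. Red blood cell genes in the MHC class II cluster were at 0.53 at 2000 counts. Endothelial and spermatogonial genes in the resident gene cluster were at 0.14 and 0.30 with barcodes weighted alike. Depth limits rare genes: the median member had 2101.5 knockout and 2026 WT UMIs, and the resident gene cluster holds 19 knockout barcodes.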

Other observations

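Further genes differed within the clusters, and those given here are picks from the many named genes. In the MHC class II cluster 2.39% of all 3478 genes measured there were higher by 2 times or more and 5.26% lower. In the resident gene cluster the shares were 11.3% and 10.7% of 3931 genes. Klf4, a transcription factor of macrophages and monocytes, was at 1037 CPM in knockout and 562 CPM in WT barcodes of the MHC class II cluster, a ratio of 1.85 (1.496 to 2.29), and at 1172 CPM and 1082 CPM in the resident gene cluster. The lectin gene Mgl2 was at 707 CPM in knockout and 974 CPM in WT barcodes of the MHC class II cluster, a ratio of 0.726 (0.597 to 0.883). Ighm, the heavy chain of IgM and the main gene of the B and plasma cell list, was at 283 CPM in knockout and 463 CPM in WT barcodes, a ratio of 0.611 (0.450 to 0.825), and Spn, which encodes the sialoglycoprotein CD43, at 109 CPM and 223 CPM, a ratio of 0.488 (0.3004 to 0.779). The cholesterol exporter Abcg1, of the lipid list, had 14 knockout counts and 2 WT counts in that cluster, a ratio of 5.92 (1.36 to 53.6), and Tspan13, a tetraspanin gene, had 8 knockout counts and 4 WT counts in the resident gene cluster, a ratio of 6.35 (1.70 to 28.8).

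Among RNA m5C writers and readers over all members, Nsun2, a methyltransferase of tRNA and mRNA, had 16 knockout counts (29.3 CPM) and 47 WT counts (74.9 CPM). Nsun4, which acts in mitochondria, had 63 knockout counts (115 CPM) and 47 WT counts (74.9 CPM) over all members but 29.0 CPM and 60.1 CPM in the MHC class II cluster. Ybx1, an RNA-binding reader, was at 938 CPM in knockout and 1390 CPM in WT members, and at 1066 CPM and 1163 CPM in the MHC class II cluster.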
